A study of Rattus norvegicus with 60 samples.

Results

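The amygdala of congenic rats was compared with that of NP rats on 10 of the 60 arrays of the series, 5 from each line. Of the 12 amygdala arrays, the array of congenic animal 3 was left out because its profile was like that of hippocampus, and the array of NP animal 6 because its striatal markers were high. The arrays used were those of congenic animals 1, 2, 4, 9 and 10 and of NP animals 5, 7, 8, 11 and 12. The series measured accumbens, amygdala, frontal cortex, hippocampus and striatum of 12 adult rats, 6 of the line NP and 6 of the congenic line NP.P. All rats were untreated, were handled daily before the experiment and were killed by decapitation, and each rat gave its own RNA from each region, so the replicates are separate animals.

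The line NP was bred for not preferring alcohol, and the line P for preferring it. A congenic line carries a stretch of 1 strain's genome on the background of another, and NP.P rats are known for a segment of chromosome 4 of the P line on the NP background. The ends of this segment, and the sex and exact age of the rats, are not given in the sources used here. A congenic line compares 2 groups of rats that differ in a whole segment and in any other allele carried along, so a difference belongs to the line and not to a single gene. The array adds a limit, since a base that differs between the lines under a probe changes the signal without a change in transcript amount, and these values cannot tell the 2 apart.

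The amygdala is a group of nuclei deep in the temporal forebrain, known for fear, anxiety and the emotional side of reward. Its central part holds mostly neurons that use GABA, the main inhibitory transmitter of the brain, and its basolateral part mostly neurons that use glutamate, the main excitatory transmitter. Neuropeptide Y, corticotropin-releasing factor and the opioid peptides act there on anxiety and alcohol drinking. A dissected amygdala borders on striatum, piriform cortex, hypothalamus and meninges, and whole tissue RNA also holds glia and vessels. In such bulk samples fewer cells of a type and less RNA per cell cannot be told apart.

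Of 18625 probe sets tested, 18 (0.0966%) were called at an adjusted p under 0.05 (limma with Benjamini-Hochberg adjustment). They were 4 that rose in congenic amygdala (0.0215% of those tested) and 14 that fell (0.0752%). Of the 18, 10 carried a gene name. Ppm1k, Snx10, Zfp956, Stmp1 and Slc6a6 lie on chromosome 4, and Gabbr1, Egfr, Mef2a, Vof16 and Mindy2 on other chromosomes. The other 8 had no gene name in the annotation. Chromosome 4 gave 5 calls among its 806 named probe sets (0.620%), and the other chromosomes gave 5 among 13179 (0.0379%). All named probe sets that rose lay on chromosome 4.

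**Figure D1:**
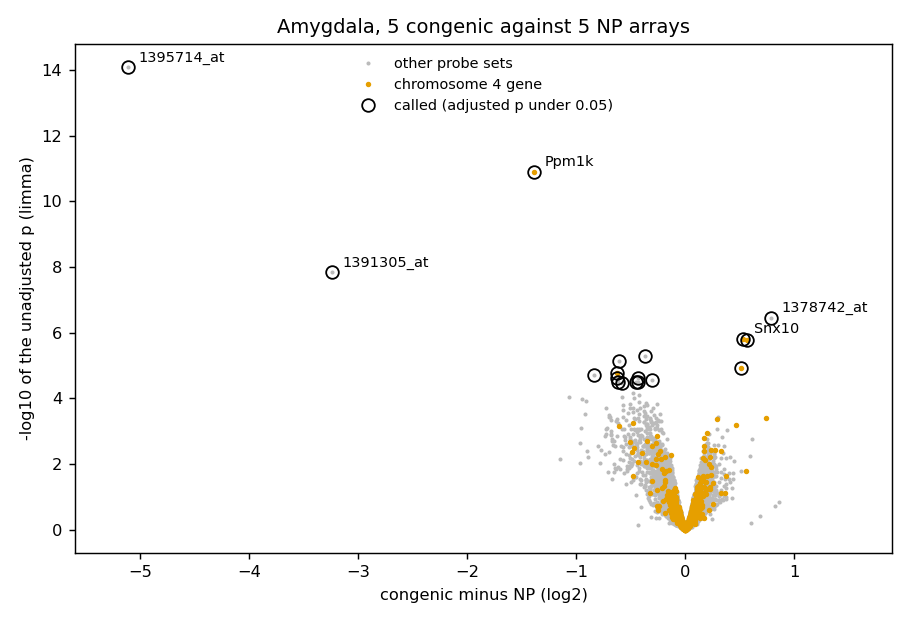
Each point is a probe set, placed by its congenic minus NP difference (log2, x axis) and by -log10 of its unadjusted limma p (y axis), with chromosome 4 genes in orange and called probe sets ringed. Of the 18 ringed points, 14 lie to the left of 0, and 1395714_at, 1391305_at and Ppm1k lie far out at -5.12, -3.24 and -1.39.

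Snx10, Zfp956 and Stmp1 were the named genes that rose, and they lie within a stretch of chromosome 4. Among the 590 chromosome 4 genes measured, taken in their order along the chromosome, Stmp1 was number 155, Zfp956 number 194 and Snx10 number 215. Their promoters are shown because a probe set of each rose in amygdala, while the brighter probe sets of Snx10 and Stmp1 did not. Each window runs from 250 bases before to 50 after the start of the gene in RefSeq (GRCr8), on the plus strand, and lies at chr4:64894413-64894712 for Stmp1, at chr4:78286100-78286399 for Zfp956 and at chr4:81943073-81943372 for Snx10. Capitals mark matches to the searched motifs on either strand.
Stmp1: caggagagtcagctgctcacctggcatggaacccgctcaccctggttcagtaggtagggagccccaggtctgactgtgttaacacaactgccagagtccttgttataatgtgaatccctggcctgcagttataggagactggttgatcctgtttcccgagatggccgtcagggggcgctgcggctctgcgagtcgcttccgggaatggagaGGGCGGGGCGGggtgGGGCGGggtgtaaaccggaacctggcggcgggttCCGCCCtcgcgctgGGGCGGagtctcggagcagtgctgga
Zfp956: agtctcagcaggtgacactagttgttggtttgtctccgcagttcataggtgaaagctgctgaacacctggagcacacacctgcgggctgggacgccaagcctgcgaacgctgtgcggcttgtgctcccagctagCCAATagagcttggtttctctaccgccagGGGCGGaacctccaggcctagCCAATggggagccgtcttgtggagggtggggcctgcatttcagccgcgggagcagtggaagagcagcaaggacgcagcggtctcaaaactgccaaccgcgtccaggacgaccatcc
Snx10: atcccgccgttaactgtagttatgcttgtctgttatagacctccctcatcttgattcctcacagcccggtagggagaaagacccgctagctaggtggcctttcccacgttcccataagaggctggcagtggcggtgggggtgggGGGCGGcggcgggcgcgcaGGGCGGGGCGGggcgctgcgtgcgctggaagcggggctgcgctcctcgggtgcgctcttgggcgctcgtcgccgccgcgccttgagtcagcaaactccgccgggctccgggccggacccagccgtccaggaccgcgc
The TATA box was searched as TATAAA. The letters CCAAT and GGGCGG stood for the CAAT box and the GC box, and TGACGTCA for the cAMP response element. The Stmp1 window held 5 GC boxes and the Snx10 window held 3, with neighbouring matches that share a base in some cases. The Zfp956 window held 2 CAAT boxes and 1 GC box. Of 33469 rat promoter windows of 300 bases, 33.1% held a GC box, 37.5% a CAAT box, 14.2% a TATA box and 1.83% the cAMP response element. A match is a run of letters and does not show that a factor binds.

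Ppm1k encodes a mitochondrial phosphatase that switches on the breakdown of branched-chain amino acids. Its called probe set (1394939_at) read 7.83, 7.75, 7.77, 7.80 and 7.56 on the arrays of congenic animals 1, 2, 4, 9 and 10, on the log2 scale of the deposited values used throughout. It read 9.06, 9.11, 9.16, 9.07 and 9.25 on those of NP animals 5, 7, 8, 11 and 12. All congenic arrays were low and all NP arrays high, with a wide gap between them. The means were 7.74 ± 0.11 (SD, n = 5) and 9.13 ± 0.08 (SD, n = 5), a difference of -1.39 ± 0.06 (SE) or a 2.62-fold lower signal in congenic rats (limma adjusted p = 1.16e-07). The congenic mean lies just above the filter limit (a log2 value of 7.68), and the array of congenic animal 10 below it. A signal this dim may be partly background, so the fold holds for the measured signal only. The second probe set of the gene (1388778_at) differed by -0.26 ± 0.06, with groups that did not overlap, and was not called (limma adjusted p = 0.195).

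Snx10 encodes a sorting nexin, a protein of endosomal membrane traffic. The called probe set (1379275_at) read 10.64, 10.61, 10.66, 10.73 and 10.47 in congenic animals 1, 2, 4, 9 and 10, and 10.13, 10.11, 9.92, 10.12 and 10.20 in NP animals 5, 7, 8, 11 and 12. Every congenic array was above every NP array. The difference was 0.53 ± 0.06, a 1.44-fold higher level (limma adjusted p = 0.00513). The brighter second probe set (1383585_s_at) differed by -0.11 ± 0.09 and was not called (limma adjusted p = 0.940), so the probe sets of Snx10 disagreed.

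Zfp956 encodes a zinc finger protein. Its probe set (1390625_at) read 8.89, 9.05, 8.77, 8.97 and 8.94 in the congenic animals, in the same order as above, and 8.51, 8.46, 8.30, 8.25 and 8.28 in the NP animals. The groups did not overlap, and the difference was 0.56 ± 0.07, or 1.48-fold (limma adjusted p = 0.00513). Stmp1 encodes a very small protein of the mitochondrial membrane that associates with respiratory complex III. Its probe set 1377890_at read 8.87, 8.72, 8.82, 8.62 and 8.65 in congenic rats and 8.12, 8.26, 8.43, 8.25 and 8.07 in NP rats. The lowest congenic array lay above the highest NP array, with a difference of 0.51 ± 0.07, or 1.43-fold (limma adjusted p = 0.0248). The brighter probe set of Stmp1 (1388441_at) differed by -0.04 and was not called.

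Slc6a6, the plasma membrane transporter of taurine, lies further along chromosome 4, at number 372 of the 590 genes, while Ppm1k is number 245. In the called probe set (1368778_at) the values were 8.35, 7.80, 8.33, 8.21 and 8.21 in congenic rats and 8.78, 8.73, 8.92, 8.75 and 8.85 in NP rats. Congenic animal 2 was the lowest array, and the groups did not overlap. The difference was -0.62 ± 0.09, a 1.54-fold lower level (limma adjusted p = 0.0314). The brighter probe set of the gene (1374531_at) differed by -0.12 and was not called.

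**Figure D2:**
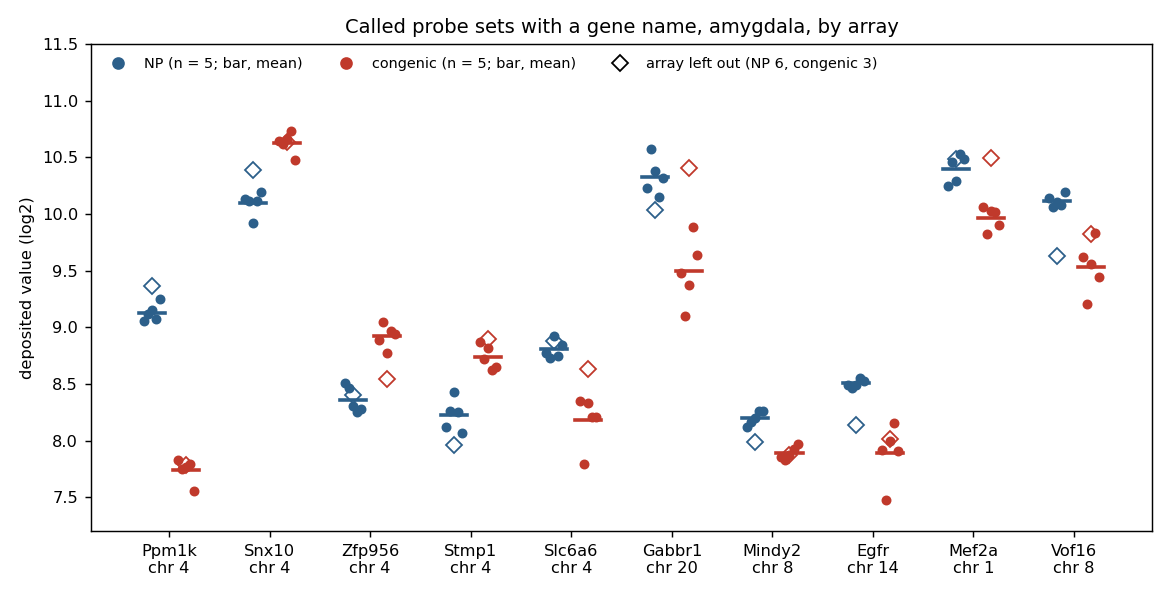
Deposited log2 values (y axis) of the 10 called probe sets with a gene name (x axis, with the chromosome) on each amygdala array. Filled points are the 5 NP and 5 congenic arrays, short bars their means, and open diamonds NP 6 and congenic 3. For Ppm1k the left-out arrays sit with their own lines, and for Gabbr1 congenic 3 lies at 10.40 with the NP arrays.

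Among the 8 unnamed called probe sets, 3 are given by ID, at the extremes of the differences. Probe set 1395714_at read 7.56, 7.28, 7.38, 7.85 and 7.75 in congenic rats and 12.86, 12.87, 12.80, 12.34 and 12.54 in NP rats, a difference of -5.12 ± 0.12 (limma adjusted p = 1.51e-10). Its congenic mean of 7.56 lies below the filter limit of 7.68, so it passed the filter through the NP arrays and its call was favoured by that choice. A congenic signal this dim may be background, and the signal difference may then be larger than the one measured, so no fold is given. This sets no bound on the transcript difference, since a base that differs under a probe may also change the signal. Probe set 1391305_at read 8.14, 6.73, 7.67, 8.36 and 7.83 against 11.31, 11.22, 11.08, 10.52 and 10.82, a difference of -3.24 ± 0.25 (limma adjusted p = 8.74e-05). Its congenic mean of 7.75 lies just above the filter limit. In frontal cortex, hippocampus and striatum its congenic means of 6.89, 6.58 and 6.76 lie below it. The filter may thus have favoured this call too, and the same limits of a dim signal hold. Both probe sets were high in NP and low in congenic amygdala with no intermediate array.
Probe set 1378742_at was the only unnamed one that rose. It read 9.15, 9.26, 8.91, 9.31 and 9.07 in congenic rats and 8.29, 8.29, 8.51, 8.25 and 8.46 in NP rats, a difference of 0.78 ± 0.08 or 1.72-fold (limma adjusted p = 0.00161). The other 5 unnamed called probe sets fell, with differences from -0.63 to -0.37 and adjusted p from 0.0132 to 0.0352.

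All 5 named genes called off chromosome 4 fell in congenic amygdala. Gabbr1 encodes the subunit of the metabotropic GABA-B receptor that binds GABA. Its called probe set (1369371_a_at) read 9.48, 9.10, 9.38, 9.89 and 9.64 in congenic rats and 10.23, 10.58, 10.38, 10.15 and 10.32 in NP rats. The congenic arrays spread more widely than the NP arrays, and the groups did not overlap. The difference was -0.83 ± 0.13, a 1.78-fold lower level (limma adjusted p = 0.0330). The 3 other probe sets of Gabbr1 differed by -0.16, -0.15 and 0.03 and were not called, and 2 of these were brighter than the called one, at NP means of 12.90 and 11.98 against 10.33.

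Egfr encodes the epidermal growth factor receptor, a tyrosine kinase. Probe set 1370830_at, the one called, read 7.92, 7.48, 8.00, 8.15 and 7.91 in congenic rats and 8.49, 8.47, 8.50, 8.55 and 8.53 in NP rats. The NP arrays lay close together, all above the congenic ones. Congenic animal 2 read below the filter limit of 7.68, where a signal may be background. The difference was -0.62 ± 0.10, or 1.53-fold (limma adjusted p = 0.0352), while the second probe set (1381145_at) differed by 0.02.
Mef2a encodes a transcription factor that acts on activity-dependent genes and synapses. Its called probe set (1393290_at) read 10.06, 9.82, 10.03, 10.02 and 9.90 against 10.25, 10.46, 10.29, 10.53 and 10.48 in NP rats, a difference of -0.43 ± 0.07 or 1.35-fold (limma adjusted p = 0.0352). A second probe set of Mef2a (1392472_at) differed by -0.38 with no overlap between the groups and was not called (limma adjusted p = 0.125), and 2 others differed by -0.22 and -0.02.

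Vof16 (1377778_at) read 9.62, 9.20, 9.56, 9.83 and 9.44 in congenic rats and 10.14, 10.06, 10.10, 10.08 and 10.19 in NP rats. The difference was -0.58 ± 0.09, or 1.50-fold (limma adjusted p = 0.0352), with the groups apart. Mindy2 encodes an enzyme that removes ubiquitin from proteins. Its called probe set (1393505_x_at) read 7.86, 7.83, 7.87, 7.93 and 7.97 against 8.12, 8.17, 8.20, 8.26 and 8.26, a difference of -0.31 ± 0.05 or 1.24-fold (limma adjusted p = 0.0352). The congenic arrays lay not far above the filter limit of 7.68, so the fold is that of a dim signal. The 3 other Mindy2 probe sets differed by -0.17, -0.02 and -0.01 and were not called.

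Of the 10 called genes with a name, 8 had 2 or more probe sets past the filter, and in none of these 8 was the called probe set the brightest of its gene. In 3 of the 8, another probe set moved the same way at an unadjusted p under 0.05. The same was seen more widely among the probe sets that were lower in congenic rats. Of the 6412 probe sets whose gene had more than 1, 43% were the brightest, but of the 397 of them lower at an unadjusted p under 0.05 it was 19.9%, and of the 137 higher it was 51.8%. Among the 18625 probe sets, 1319 (7.08%) lay under an unadjusted p of 0.05, 489 higher (2.63%) and 830 lower (4.46%). With the brightest probe set standing for each of 10378 named genes, 284 were higher (2.74%) and 206 lower (1.98%), so the excess of lower values lay in the dimmer probe sets of genes and in unnamed ones.

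The array carries control probe sets at the 3' and the 5' end of some transcripts, and their difference follows RNA and labelling quality. For Gapdh the 3' minus 5' difference ran from -0.036 to 0.0033 on the congenic arrays and from -0.10 to -0.047 on the NP arrays, so the lines did not overlap. For actin the ranges were 0.89 to 1.09 and 0.88 to 1.00, and for hexokinase 1.40 to 1.72 and 1.30 to 1.51, with overlap. The Gapdh values thus moved with the line beside the lower calls, and the part of RNA and labelling quality in the result was not tested.

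Probe sets just short of the threshold also leaned to lower values, whereas the brightest probe sets of named genes, given above, did not. Of the 100 probe sets next in p after the called ones, 49 had no gene name. Of the 100, 94 were lower and 6 higher in congenic rats, and all 14 with an adjusted p between 0.05 and 0.10 were lower. The 12 named probe sets next in p belonged to Nipbl, Cplx2, Sf3b1, Tom1l2, Ash1l, Tmem158, Kalrn, Rgs7bp, Pde1b, Map2, Nhsl2 and Nrg2. Cplx2 encodes a complexin, which binds the vesicle fusion machinery of the synapse, and its values were 9.12 in congenic and 10.03 in NP rats, a difference of -0.91 ± 0.17 (limma adjusted p = 0.0894). Nipbl, which loads cohesin onto chromosomes, differed by -0.48 (limma adjusted p = 0.0685), and Sf3b1, a core splicing factor, by -0.43 (limma adjusted p = 0.0950). Map2, a protein of dendritic microtubules, differed by -0.31 and Kalrn, an exchange factor of dendritic spines, by -0.30. None of these 12 passed the threshold. In each the 2 groups did not overlap, as was the case for 327 of all probe sets (1.76%), 84 of them higher (0.451%) and 243 lower (1.30%). The 12 were picked by small p, which favours groups that do not overlap, so this is no separate evidence.

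On chromosome 4 the groups did not overlap in 22 of 806 probe sets (2.73%), against 182 of 13179 (1.38%) on other chromosomes. An unadjusted p under 0.05 was found for 66 (8.19%) and 803 (6.09%). None of the further chromosome 4 genes was called. Closest were Fam180a at 0.74 ± 0.15 and Fkbp14, a chaperone of collagen folding, at 0.29 ± 0.06 (limma adjusted p = 0.125 for each), the first with overlapping groups. Akr1b1, the aldose reductase, differed by 0.20 ± 0.05 (limma adjusted p = 0.174) and Bpgm, which makes 2,3-bisphosphoglycerate, by 0.17 ± 0.04 (limma adjusted p = 0.200), both with congenic arrays all above the NP arrays. Lower values that did not pass were found, by the probe set of smallest p, for Aak1 (-0.48), Ubn2 (-0.61), Kmt2c (-0.51), Kcnd2 (-0.35) and Hnrnpa2b1 (-0.27). A higher one was found for Magi1 (0.46). The brighter probe sets of Aak1, Kmt2c, Kcnd2 and Hnrnpa2b1 differed by only 0.01, 0.07, -0.08 and 0.02. Of the 18 genes that earlier work on these data called over the mean of regions, all were measured in amygdala, and 3 were called higher and 1 lower. That list was chosen on these samples and is not independent evidence.

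**Figure D3:**
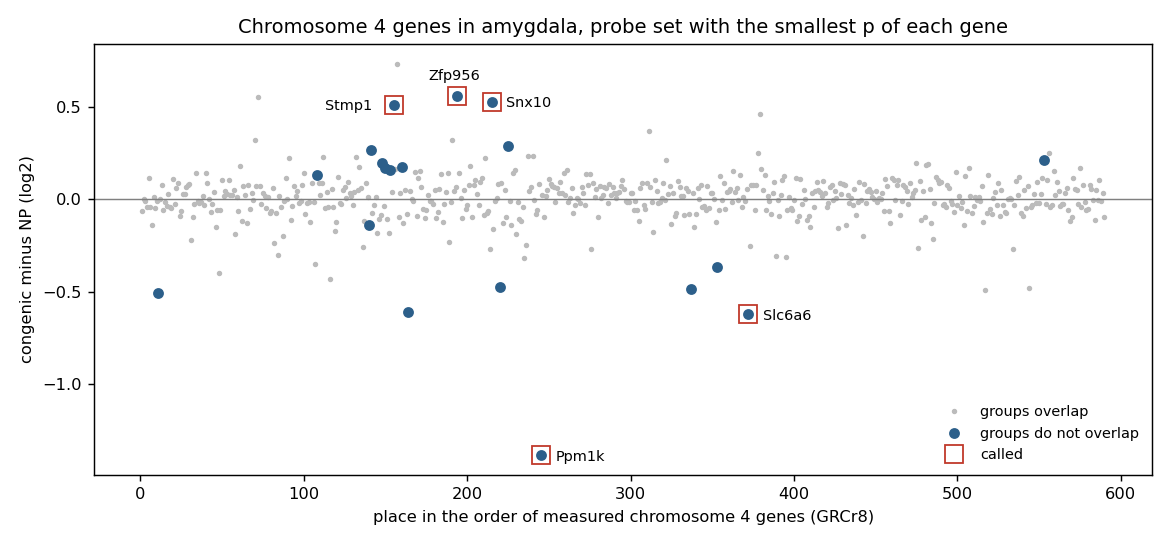
Congenic minus NP difference in amygdala (log2, y axis) of each measured chromosome 4 gene by its place in the gene order (x axis), with the probe set of smallest p standing for the gene. Blue points have groups that do not overlap and red squares are called; the 3 called genes above 0 lie between places 155 and 215, Ppm1k at 245 and Slc6a6 at 372.

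Putting the 2 arrays back reduced the calls from 18 to 6 of 18625 (0.0322%), 3 higher and 3 lower, and all 6 were among the 18. They were Ppm1k, Snx10, Stmp1 and the unnamed 1395714_at, 1391305_at and 1378742_at. With 12 arrays Ppm1k differed by -1.42 (limma adjusted p = 3.59e-08), Snx10 by 0.48 (limma adjusted p = 0.0243) and Stmp1 by 0.58 (limma adjusted p = 0.0140). Zfp956 missed the threshold at 0.49 (limma adjusted p = 0.0741). There congenic 3 read 8.54, below the other congenic arrays. No gene off chromosome 4 was called with 12 arrays. Gabbr1 differed by -0.63 (limma adjusted p = 0.422), Mef2a by -0.36 (0.418), Vof16 by -0.45 (0.377), Egfr by -0.53 (0.213), Mindy2 by -0.28 (0.213) and Slc6a6 by -0.56 (0.195), the numbers in brackets being limma adjusted p. Groups that did not overlap numbered 86 (0.462%) with 12 arrays, and 1110 (5.96%) lay under an unadjusted p of 0.05.

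The left-out arrays sat apart in some of these genes and not in others. In Ppm1k congenic 3 read 7.79 and NP 6 read 9.36, each with its own line. In Gabbr1 congenic 3 read 10.40, as high as the NP arrays, and in Mef2a 10.49. In Egfr NP 6 read 8.13, in Vof16 9.63 and in Mindy2 7.99, below all other NP arrays of each gene. Congenic 3 alone put back left 6 calls and NP 6 alone left 14. Among the genes that NP 6 alone took out were Egfr (limma adjusted p = 0.0834), Vof16 (0.139) and Mindy2 (0.0926).

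Leaving out 1 of the 10 arrays at a time also moved the calls. Ppm1k, Snx10, Zfp956 and the unnamed 1395714_at, 1391305_at and 1378742_at were called in all 10 leave-outs. Gabbr1, Egfr and Vof16 stayed called only without congenic 2 or congenic 9, and Mindy2 only without congenic 9. Mef2a stayed called without congenic 2, congenic 9, NP 5 or NP 8, Slc6a6 without congenic 1, 2, 4 or 9, and Stmp1 without congenic 2, congenic 9 or NP 8. The number of calls ran from 6 without congenic 10 to 46 without congenic 9, and was 39 without congenic 2. It was 7 without NP 7 or NP 12, 8 without NP 11, 10 without congenic 1 or NP 5, and 11 without congenic 4. All 5 named genes off chromosome 4 thus lost their call without congenic 1, congenic 4, congenic 10, NP 7, NP 11 or NP 12.

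Marker lists were used to check what the dissections held. The 16 measured markers of amygdala neurons had summed levels (means over the list) of 10.10 to 10.31 on congenic arrays and 10.11 to 10.26 on NP arrays, with 9.47 on congenic 3. Correlation with the amygdala profile ran from 0.676 to 0.843 on congenic and 0.577 to 0.827 on NP arrays, and was -0.0674 on congenic 3 and 0.237 on NP 6. The markers of medium spiny neurons, the main cell of striatum, leaned lower in congenic rats. All 16 of 16 measured genes had differences below 0, with a median of -0.27 against 0.01 over all named genes, and none was called. Their mean level ran from 10.21 to 10.77 on congenic and 10.29 to 11.14 on NP arrays, and was 11.94 on NP 6 and 9.31 on congenic 3. With 12 arrays the median was -0.69. NP 6 and congenic 3 were left out for such profiles, so their standing apart on these markers was fixed by that choice. Pde10a (-0.68 ± 0.17 by 1370669_a_at) and Pde1b (-0.38 ± 0.07), phosphodiesterases of medium spiny neurons, had the smallest p of the list. By the brightest probe sets the lowest difference among the 16 genes was -0.57, so the Pde10a value came from a dimmer one.

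The meninges and fibroblast markers leaned the other way. All 10 of 10 had differences above 0, with a median of 0.36, and none was called. Col3a1 differed by 0.59, Col1a1 by 0.35 and Fmod by 0.44, and the list's level ran from 10.17 to 11.03 on congenic and from 9.87 to 10.56 on NP arrays. Of 15 markers of cortical excitatory neurons 11 were below 0, with a median of -0.04, and none was called. Among them Tbr1, a transcription factor of excitatory neurons, differed by -0.69, Bcl11b by -0.68 and Slc17a7, a vesicular glutamate transporter, by -0.50. Levels overlapped between the lines for every marker list shown. The part of these tissues in the called differences was not tested.

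**Figure D4:**
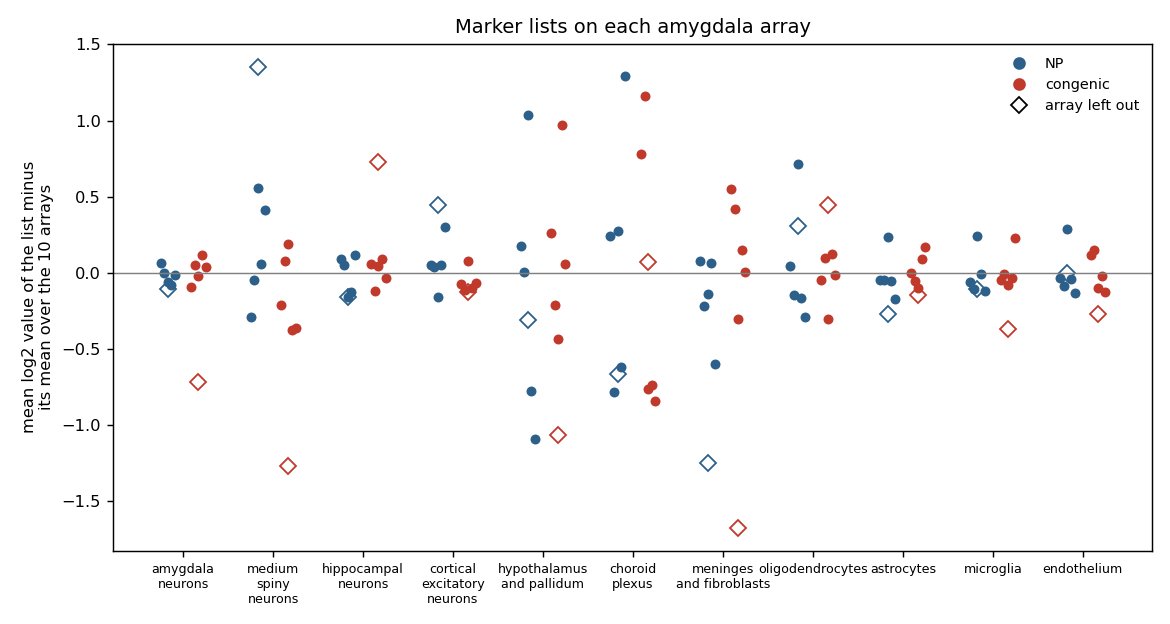
Mean log2 value of each marker list (x axis) on each amygdala array, minus the list's mean over the 10 arrays used (y axis). Blue points are NP, red points congenic, open diamonds the arrays left out. NP 6 is high for medium spiny neurons and congenic 3 is high for hippocampal and low for amygdala neurons, as the choice to leave them out implies.

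Inhibitory and excitatory transmission genes were read as lists, with the probe set of highest mean standing for each gene. Over all 10378 named genes, 10 (0.0964%) had a called probe set, and the lists built around a called gene hold that call by construction. For GABA synthesis and GABA-B receptors 7 genes were measured, and the 1 called was Gabbr1, by a dimmer probe set. Gad2, which makes GABA at synapses, differed by -0.23 ± 0.08 and was not called. Among 6 transporters of GABA and taurine only Slc6a6 was called. None of 8 GABA-A receptor genes was called, with Gabrb2 at -0.44 and Gabra4 at -0.25 for the probe set of smallest p. By the brightest probe sets the lowest difference among the 8 was -0.25, so the Gabrb2 value came from a dimmer one.
None of 12 AMPA and NMDA receptor genes was called. Of these 12, 11 were below 0, with a median of -0.15, and 5 had an unadjusted p under 0.05, all lower, against 1.98% of named genes. Grin2a, an NMDA receptor subunit, differed by -0.77 ± 0.22 (limma adjusted p = 0.284), Gria2, an AMPA receptor subunit, by -0.25 ± 0.09 (limma adjusted p = 0.459) and Cacng2, an auxiliary subunit of AMPA receptors, by -0.18 ± 0.06 (limma adjusted p = 0.364). None of the 8 metabotropic glutamate receptor genes was called either, with Grm5 at -0.48 ± 0.12 and Grm3 at -0.40 ± 0.12.

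The genes around Egfr, Mef2a, Ppm1k, Snx10 and Stmp1 were mostly not called. These lists were built around those genes, so the call in each was fixed by the choice, and it is to be set beside the 0.0964% of all named genes. In the EGF receptor family and its ligands, 1 of 10 was called, Egfr itself. Nrg2, a neuregulin ligand, differed by -0.23 ± 0.05, and the exchange factors Sos1 and Sos2, which pass the signal on to Ras, by 0.22 and 0.14. By the brightest probe sets the lowest difference among the 10 was -0.16, so the Nrg2 value came from a dimmer one. Among 6 MEF2 factors and class IIa histone deacetylases only Mef2a was called, and Mef2c differed by -0.37 in 1 probe set (1373410_at) and by 0.03 in the brighter one (1372332_at).
Of 16 genes of branched-chain amino acid breakdown, Ppm1k was the 1 called, and the 16 split into 8 above and 8 below 0. The dehydrogenase subunit Bckdha and its kinase Bckdk, chosen after their values were seen, differed by 0.07 and -0.06. Snx10 was the 1 of 19 sorting nexins called, and Stmp1 the 1 of 18 genes listed with respiratory complexes III and IV.

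The peptides and receptors of stress, reward and alcohol were not called. Npy, the gene of neuropeptide Y, lies on chromosome 4 and read 11.87 ± 0.17 (SD, n = 5) in congenic and 11.96 ± 0.07 (SD, n = 5) in NP amygdala. The difference was -0.08 ± 0.08 (limma adjusted p = 0.961), and an exact two-sided permutation test over the 10 arrays gave p = 0.341, with 0.00794 the smallest that 5 against 5 allows. With 12 arrays the difference was -0.25 (exact permutation p = 0.0931). The receptors Npy1r and Npy5r differed by 0.02 and 0.04.
None of 9 genes of the corticotropin-releasing factor and glucocorticoid axis, 9 of opioid and tachykinin signalling, 20 other amygdala peptides and receptors, 9 serotonin and dopamine receptors and 11 immediate early genes was called. The values nearest to a call, by the probe set of smallest p, were -0.34 ± 0.20 for Sgk1, a kinase induced by glucocorticoids, and -0.14 ± 0.08 for Tacr3, a tachykinin receptor. They were -0.32 ± 0.17 for Adcyap1r1, the receptor of the peptide PACAP, -0.32 ± 0.15 for the dopamine receptor Drd1 and -0.27 ± 0.11 for Jun. The brighter probe set of Adcyap1r1 (1374681_at) differed by 0.07. By the brightest probe sets, the lowest difference among the 9 serotonin and dopamine receptors was -0.28, so the Drd1 value also came from a dimmer one. None of 12 genes of ethanol and aldehyde metabolism was called, and Akr1b1 was the 1 of them whose groups did not overlap, where 0.451% of all probe sets were higher without overlap.

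The same animals gave 4 other regions, which show where the amygdala differences recur. In accumbens, frontal cortex, hippocampus and striatum, 8 (0.0430%), 10 (0.0537%), 7 (0.0376%) and 12 (0.0644%) of the 18625 probe sets were called between the lines, with 10, 12, 9 and 12 arrays. Ppm1k differed in these regions by -1.01, -1.36, -1.24 and -1.04 and Snx10 by 0.55, 0.66, 0.48 and 0.63, and both were called in each (limma). So were the unnamed 1395714_at (-4.89, -4.85, -4.17 and -4.23), 1391305_at (-2.76, -3.37, -2.71 and -2.96) and 1378742_at (0.98, 0.78, 0.65 and 0.52). Congenic means in these 4 regions were 6.92 to 7.60 for 1395714_at and 6.58 to 7.95 for 1391305_at. Their signal differences may be lower bounds in size there too, with the same limit on transcript amount. These 5 of the 18 were called in amygdala and in all 4 other regions. Zfp956 differed by 0.45, 0.26, 0.49 and 0.29 and was called in accumbens and hippocampus. Stmp1 differed by 0.25, 0.38, 0.49 and 0.24 and was called in none of the 4. The regions come from the same rats and are not independent replicates of the lines.

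The 5 named genes off chromosome 4 were called in none of the 4 other regions, with adjusted p of 0.631 or more. In accumbens all 5 had differences above 0, from 0.13 for Mef2a to 0.64 for Gabbr1. In frontal cortex all 5 were below 0, from -0.61 for Vof16 to -0.20. In hippocampus they ran from -0.37 to 0.01 and in striatum from -0.12 to 0.05. Slc6a6 differed by 0.44, -0.43, 0.04 and -0.13 in accumbens, frontal cortex, hippocampus and striatum.

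**Figure D5:**
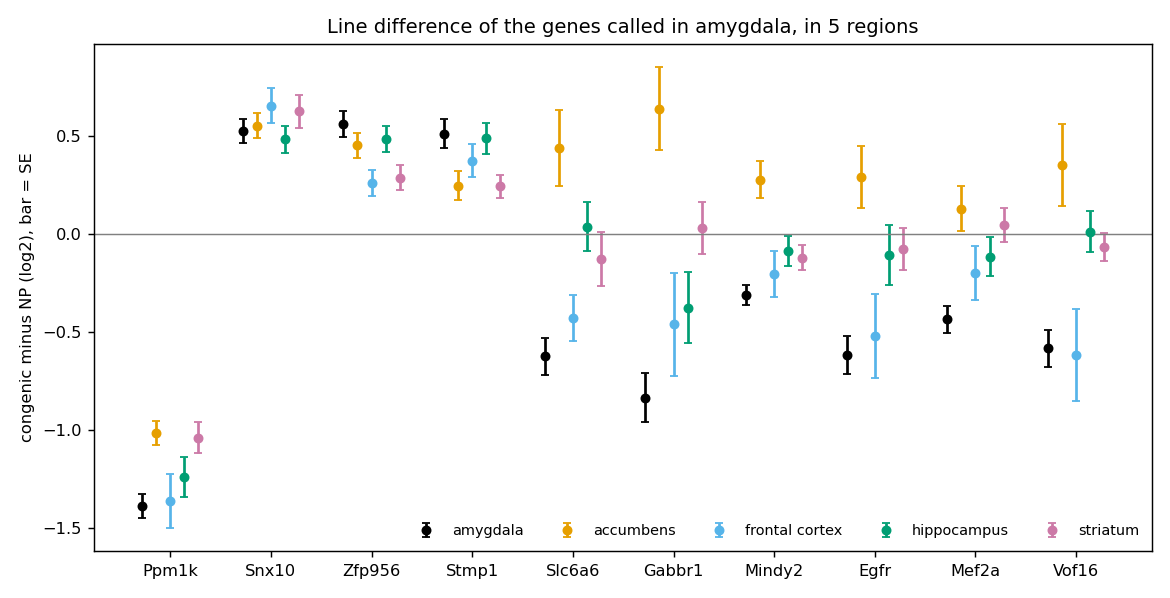
Congenic minus NP difference (log2, y axis; bars, SE) of the 10 named genes called in amygdala (x axis) in each of 5 regions, each region fitted on its own. Ppm1k and Snx10 lie on the same side in all 5 regions, while Gabbr1 is at -0.83 in amygdala and at 0.64 in accumbens.

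Whether these differences were particular to amygdala was tested directly, by setting the line difference in amygdala against the mean of the line differences in the other 4 regions over 53 arrays. No probe set was called (0%) in this limma test, and 986 (5.29%) had an unadjusted p under 0.05. For the 5 named genes off chromosome 4 the difference between regions ran from -0.79 for Gabbr1 to -0.28 for Mindy2, with unadjusted p from 0.00359 to 0.0236 and limma adjusted p from 0.749 to 0.881. Genes called on the same amygdala arrays enter this test with a large amygdala difference, which favours a small unadjusted p. Slc6a6 differed by -0.60 ± 0.18 (limma adjusted p = 0.749), Ppm1k by -0.22 ± 0.12 (0.974) and Snx10 by -0.05 ± 0.09. A p that misses the threshold does not show that the regions act alike.
The named genes with the smallest p in this test were Sdc3, Antxr2, Kcnq3, Cplx2, Dcaf6 and Ankrd6. Sdc3, a cell surface proteoglycan of neurons, differed between the lines by -0.46 in amygdala and by 0.14, -0.06, -0.21 and 0.13 in accumbens, frontal cortex, hippocampus and striatum, with a difference between regions of -0.46 ± 0.10 (limma adjusted p = 0.356). Cplx2 differed by -0.91 in amygdala and by 0.59, -0.50, -0.27 and 0.06 in the others. Antxr2, a receptor that binds collagen, was higher by 0.39 in amygdala and within 0.15 of 0 elsewhere, and did not pass (limma adjusted p = 0.524).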

How the data were processed

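Total RNA of each rat and region was labelled with biotin and hybridized to its own Affymetrix rat array, per the labels' protocols. The deposited table holds log2 values of 31099 probe sets, between 4.58 and 16.01. The authors' background correction, normalization and summary of the probes are not given in the sources used here. Control probe sets of the array (57) were dropped, and the 18625 probe sets with a mean over all 60 arrays at or above the 40th percentile (a log2 value of 7.68) were tested. Gene symbols came from GEO's platform annotation. Of the 31042 probe sets without controls, 20826 had 1 symbol, 436 had several and 9780 had none, and 20758 probe sets matched the RefSeq gene table (GRCr8), which gave chromosomes and gene order. A probe set without exactly 1 symbol goes by its ID.

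Congenic and NP arrays were compared with limma 3.58.1 (lmFit and eBayes, R 4.3.3), two-sided, with Benjamini-Hochberg adjustment over the 18625 probe sets. Calls were made at an adjusted p under 0.05. The line difference in amygdala was also set against the mean of the other 4 regions, in a limma fit over 53 arrays, which leaves out 7 arrays that stood apart in earlier work. For Npy an exact permutation test over the 10 arrays was added. Marker and function lists were described by counts and medians, with the probe set of highest mean standing for each gene. The script was tested on simulated data. The members, the lists and the arrays left out were chosen with earlier results of these data known.

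The text names all called probe sets with 1 symbol and the other probe sets of their genes. It also names unnamed called probe sets at the extremes, up to 12 named probe sets next in p, up to 10 further chromosome 4 genes, up to 3 genes of a list by p, the 6 named genes with the smallest p for the difference between regions, and Npy with its receptors. Genes outside this rule are said to be chosen after their values were seen. The same number marks the same animal across regions, per the labels. Same-animal deviations of amygdala and another region correlated with a mean of 0.11 over 36 pairs, against -0.009 over 394 pairs of different animals. Alternatives were the 2 arrays put back, other normalizations, other filters, other variance models, blocks and leaving out each array. Arrays have no read depth, and their number limits the precision.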

Additional observations from a re-analysis of the deposited data

Results flagged for a closer look

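In 6 of 56 groups of 5 arrays, the highest or lowest array lay far from the others for the group's range, a distance that chance gives in about 1 in 20 groups. The called probe set of Slc6a6 was low on the array of congenic 2, at 7.80. The called probe set of Ppm1k was low on congenic 10, at 7.56, further from the NP arrays than its group. The mean over cortical excitatory neuron markers was high on congenic 4, at 10.29. The means over oligodendrocyte precursor and endothelium markers were both high on NP 8, at 10.43 and 10.42. The mean over microglia markers was high on congenic 10, at 10.34.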

How the results depend on the processing

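The 18 calls became 6 with all 12 arrays, 6 with congenic 3 put back, 35 with no filter, 2 with a filter at the 60th percentile and 3 when tested against a 1.2-fold change (limma's treat). Leaving out 1 array at a time gave 6 to 46 calls. Putting NP 6 back gave 14, and quantile normalization, median centring, a filter on the 10 arrays and limma's trend and robust prior gave 17, 18, 17 and 17. A block for animal numbers 1-8 and 9-12 gave 24, all 18 among them. A single fit over 53 arrays with a random animal term gave 17, of which 7 were among the 18. Within amygdala the lines share no animal number. For the difference between regions, the fit with the animal as a replicate block called 0 probe sets, as did each other setting, and the smallest adjusted p of a named gene was 0.0802 for Sdc3. The block changed no call there. For Npy no setting changed the direction or the side of the threshold, but the difference of -0.0835 ran from -0.126 without congenic 2 to -0.0265 without congenic 10, and was -0.248 with 12 arrays.

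Signs changed in 24 of 2025 values of single probe sets, in 7 of 94 probe sets, none of them called. With all 12 arrays Mindy2 1381356_at was at 0.0310 and Npy1r at -0.0500. With congenic 3 put back Egfr 1381145_at was at -0.0103, Mindy2 1381356_at at 0.0331 and Npy1r at -0.0140, and with NP 6 put back Npy1r was at -0.0192. Quantile normalization gave Mindy2 1381356_at 0.00266. The cause was not tested. Across the fits that leave out 1 array, the differences ran from -0.0286 to 0.0736 for Egfr 1381145_at, -0.0484 to 0.0210 for Mindy2 1381356_at, -0.0676 to 0.0120 for Mindy2 1389082_at, -0.0518 to 0.0235 for Mef2a 1383093_at, -0.0717 to 0.00848 for Stmp1 1388441_at, -0.0736 to 0.124 for Npy1r and -0.0577 to 0.0802 for Npy5r.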
